A study of Sinonovacula constricta with 9 samples.

Results

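The transcripts described here were those whose level was highest at low salinity, intermediate at the control salinity and lowest at high salinity in whole juvenile razor clams, Sinonovacula constricta. They numbered 80 of the 27326 unigenes (assembled transcript sequences) that passed the filters on level, and of 246672 in all. The members were chosen by their measured level in all 9 libraries, in FPKM (fragments scaled to unigene length in kilobases and to sequencing depth). A unigene entered with a mean of at least 2 FPKM and at least 300 counts over the 9 libraries, if it was not among the 100 with the most counts. Every library at 5 psu then had to lie above every library at 15 psu, and every library at 15 psu above every library at 25 psu. The ratio of group means, each with 0.1 FPKM added, had to be at least 1.5 at both steps. The order and the size of these steps are therefore given below as a description and support nothing by themselves.

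The juveniles were sampled whole on day 15 after fertilization, after 6 h at low salinity (5 psu), at the optimal salinity that served as the control (15 psu) or at high salinity (25 psu), where psu is the practical salinity unit. No strain, origin or genotype is given in the labels, nor any other treatment. There were 3 libraries of total RNA per salinity, with 15897903 to 18427234 estimated counts each, and no label says whether these came from separate cultures. In a whole animal, fewer cells of a type and less RNA per cell cannot be told apart. The files do not pair identifiers with gene names, so functions, defining markers of a tissue and genome positions are not given, and 4 identifiers are printed.

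Marine and estuarine bivalves are osmoconformers: their body fluids follow the salt content of the water around them. When the water is diluted, cells tend to swell, and they regain volume by releasing ions and organic osmolytes such as free amino acids. When it is concentrated, cells tend to shrink and take up or make such solutes. Transcripts of transporters and of enzymes that make or break down osmolytes are therefore a usual object of study in clams moved between salinities. Which of the unigenes below belong to such classes is not known here.

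The falling pattern was the rarer of the 2 stepwise patterns. Of the unigenes that passed the level filters, 558 (2.04%) had the falling order without overlap and 1390 (5.09%) the opposite order. The minimum ratio at both steps left 80 falling unigenes (0.293%) and, with the rule mirrored, 340 rising ones (1.24%). These were 14.3% of the ordered falling and 24.5% of the ordered rising unigenes. Among the ordered falling unigenes that were left out, 310 had both ratios under 1.5, 97 only the ratio of 15 over 25 psu and 71 only the ratio of 5 over 15 psu. Another 70 unigenes had both ratios but overlapping libraries, 22 of them between 5 and 15 psu alone, 21 between 15 and 25 psu alone and 27 at both steps. None of the 100 unigenes with the most counts met the order and the ratios.

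Summed over the 80 unigenes, the level was about the same in the libraries of each group and far apart between groups. It was 2357, 2683 and 2753 FPKM in the libraries at 5 psu. The control libraries held 781, 779 and 843 FPKM. At 25 psu the sums were 379, 372 and 375 FPKM. The unigenes took 0.241 to 0.274% of a library's counts at 5 psu, 0.0881 to 0.0927% at 15 psu and 0.0388 to 0.0407% at 25 psu. At 5 psu a few unigenes carried a large part of the summed FPKM, and less so at 25 psu. The 2 most abundant held 41.9% of it at 5 psu, 21.2% at 15 psu and 8.48% at 25 psu. The second of these owes its high FPKM to an implied effective length of only 57.0 nucleotides. It had 1721 counts over the 9 libraries, against 45692 for the first. Without them the sums were 1442 to 1591, 620 to 647 and 337 to 348 FPKM. The rule fixes that no sum of members can overlap between groups.

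**Figure D1:**
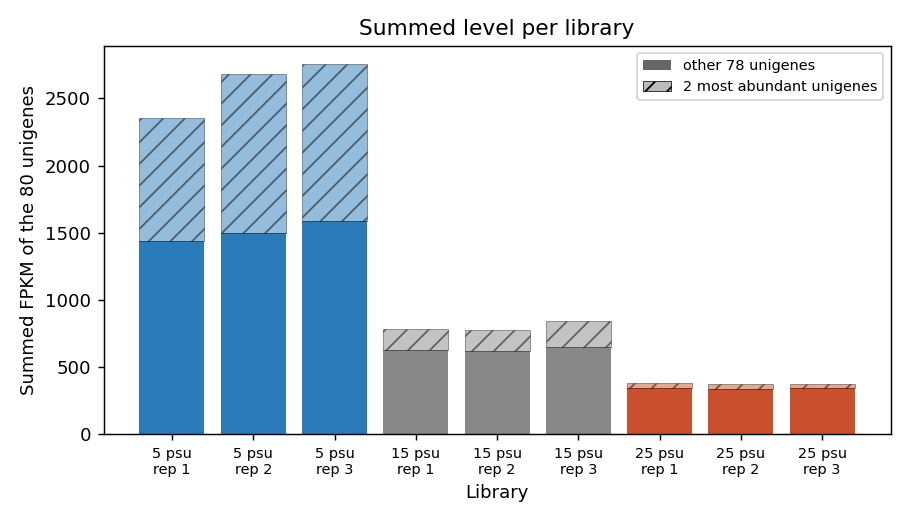
Summed FPKM (y axis) of the 80 unigenes in each of the 9 libraries (x axis), with the 2 most abundant unigenes hatched on top of the other 78. The sum falls from 2357 to 2753 FPKM at 5 psu to 372 to 379 FPKM at 25 psu, and the hatched part shrinks from 41.9% to 8.48% of it. One of the 2 hatched unigenes has an implied effective length of only 57.0 nucleotides, which raises its FPKM.

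The most abundant member, Cluster-8005.114499, differed little between the libraries of a group. It stood at 547, 541 and 605 FPKM at 5 psu, at 130, 137 and 144 FPKM at 15 psu and at 26.9, 25.3 and 25.5 FPKM at 25 psu. The lowest library at 5 psu was 3.77 times the highest control library. All its counts were whole numbers, so no read was divided between it and another unigene, and 491 to 13483 counts stood behind each value. Against the control its log2 fold change was 2.07 (SE 0.07) at 5 psu and -2.37 (SE 0.07) at 25 psu (edgeR quasi-likelihood test on counts, Benjamini-Hochberg adjusted p = 2.44e-06 and 8.76e-07). Both calls held in the other 17 fits of this gene.

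Cluster-8005.8954 was second in abundance and had the largest ratio of 5 over 15 psu among members with a mean of at least 10 FPKM. Its values were 367, 644 and 557 FPKM at 5 psu, 25.2, 21.6 and 52.4 FPKM at 15 psu and 4.29, 10.2 and 3.46 FPKM at 25 psu. In FPKM, control replicate 3 was more than double the other control libraries, and still far under every library at 5 psu. In counts it was less than double control replicate 1, at 49 against 29. The effective length implied by its count and FPKM was only 57.0 nucleotides, so its high FPKM rests on few reads: 357 to 645 counts at 5 psu, 25 to 49 at 15 psu and 3 to 9 at 25 psu. The log2 fold change was 3.97 (SE 0.32) at 5 psu and -2.55 (SE 0.46) at 25 psu (edgeR adjusted p = 0.000222 and 0.0215). The call at 25 psu was lost without control replicate 1 or 3 (-2.63 and -2.18, edgeR adjusted p = 0.0596 and 0.0631) and without replicate 1 or 3 at 25 psu (-2.33 and -2.27, edgeR adjusted p = 0.0996 and 0.0939).

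Cluster-8005.132259 had the largest ratio of 15 over 25 psu and the widest range of all 80 members. Its 3 libraries at 5 psu held 26.2, 34.9 and 52.8 FPKM. Those at 15 psu held 2.23, 2.73 and 5.62 FPKM, and at 25 psu it was listed at 0, 0 and 0.25 FPKM, from 0, 0 and 6.3 counts. A count of 0 allows up to 3 counts in a library of this depth, so at 25 psu it was close to the limit of what these libraries can show. The log2 fold change was 3.45 (SE 0.45) at 5 psu and -5.37 (SE 0.79) at 25 psu (edgeR adjusted p = 0.00528 and 0.0133), and the latter call was lost without replicate 1 or 2 at 25 psu (-4.76 and -4.84, edgeR adjusted p = 0.0578 and 0.0604). Without replicate 3 at 25 psu, which leaves 2 libraries at 0 counts, the fitted log2 fold change was -9.53, so the size of the drop rests on 6.3 counts in 1 library. Without a filter on low counts neither call held (3.46 and -5.34, edgeR adjusted p = 0.068 and 0.0833).

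Cluster-8005.139266 dropped mostly between 5 and 15 psu. It was at 34.4, 28.0 and 31.5 FPKM at 5 psu, 2.09, 1.99 and 2.64 FPKM at 15 psu and 1.28, 0.34 and 0.69 FPKM at 25 psu. The libraries of the last 2 groups held only 7 to 8 and 1 to 4 counts each. Its log2 fold change at 5 psu was 3.80 (SE 0.31, edgeR adjusted p = 0.000196), and at 25 psu the difference of -1.50 (SE 0.42) did not pass the test (edgeR adjusted p = 0.141).

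**Figure D2:**
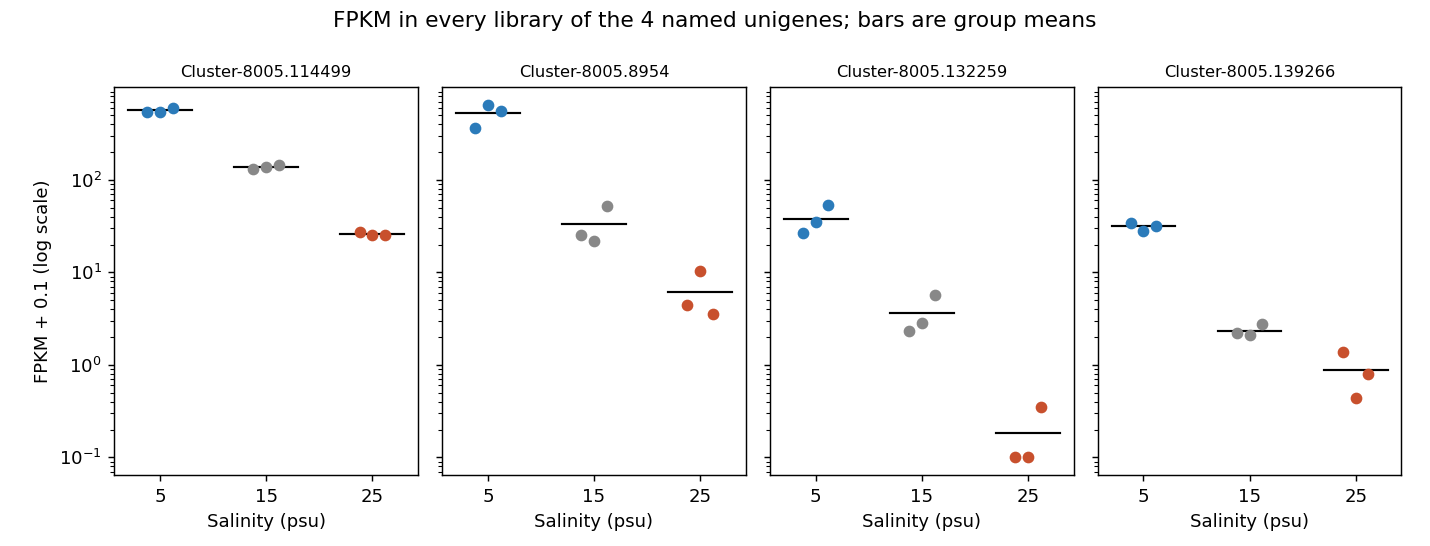
FPKM + 0.1 (y axis, log scale) in each of the 3 libraries per salinity (x axis) for the 4 named unigenes, with a bar at the group mean. Cluster-8005.114499 shows tight groups from 541 to 605 FPKM at 5 psu to 25.3 to 26.9 FPKM at 25 psu, while Cluster-8005.132259 reaches 0 FPKM in 2 libraries at 25 psu.

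Most of the 80 unigenes stood at modest levels. The mean over 9 libraries ran from 2.08 to 242 FPKM with a median of 5.23 FPKM, against a median of 5.60 FPKM over all unigenes that passed the level filters. From 2 to 10 FPKM there were 59 members (73.8%, against 71.2% of all), from 10 to 100 FPKM 19 (23.8%, against 25.9%), and 2 above that. No member had a value of 0 in a library at 5 or 15 psu, and 2 had at least 1 value of 0 at 25 psu. The third most abundant member, for example, held 179, 171 and 170 FPKM at 5 psu, 69.1, 63.1 and 71.5 FPKM at 15 psu and 46.8, 39.2 and 41.7 FPKM at 25 psu. The eighth held 55.0, 46.6 and 40.3 FPKM, then 33.5, 27.2 and 27.8 FPKM, then 16.5, 17.4 and 13.4 FPKM. In both, the 3 groups stood clear of each other, as the rule requires. The eighth member was not called at 5 psu (edgeR adjusted p = 0.0699) and was the only 1 of the 10 most abundant not called at both salinities. The fourth to seventh ranged from 59.2 to 128 FPKM at 5 psu, from 41.1 to 58.7 FPKM at 15 psu and from 20.6 to 31.1 FPKM at 25 psu. The tenth was almost the same in its libraries at 5 psu, at 34.3, 34.5 and 34.4 FPKM, with 21.5, 21.5 and 23.2 FPKM at 15 psu and 16.2, 11.03 and 13.7 FPKM at 25 psu.

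The total drop from 5 to 25 psu had a median of 3.76-fold (interquartile range 3.10 to 6.67), and ran from 2.47-fold to 208-fold. It was at least 4-fold in 36 members and at least 10-fold in 17. The rising counterpart had a similar median of 3.93-fold, with 163 of 340 at 4-fold or more (47.9%, against 45.0% of the falling) and 32 at 10-fold or more (9.41%, against 21.3%); these shares were not tested against each other. Of the falling unigenes, 20 halved or more at both steps and 10 dropped at least 3-fold at both. The 5 that dropped at least 4-fold at both were Cluster-8005.114499, Cluster-8005.8954, Cluster-8005.132259 and the members ranked 12 and 65 by mean level. The member ranked 12 held 49.6, 44.3 and 44.3 FPKM at 5 psu, 8.80, 10.3 and 9.38 FPKM at 15 psu and 0.94, 4.05 and 1.35 FPKM at 25 psu. The member ranked 65 held 6.08, 6.83 and 8.77 FPKM, then 0.61, 1.55 and 2.09 FPKM, then 0.23, 0.30 and 0.10 FPKM. Their values at 25 psu rest on few reads: 3, 12 and 4 counts for the member ranked 12, and 5, 6 and 2 for that ranked 65.

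**Figure D3:**
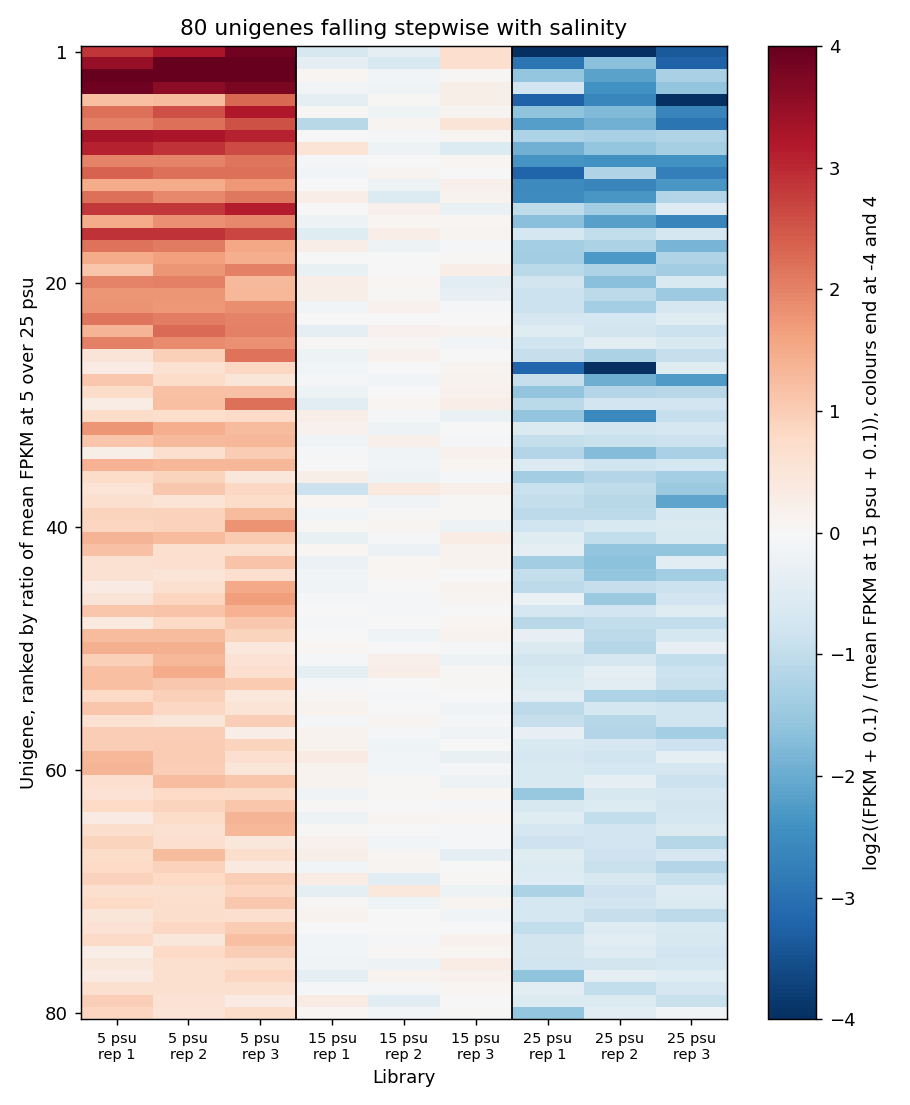
Level of each of the 80 unigenes (rows, ranked by the ratio of mean FPKM at 5 over 25 psu) in the 9 libraries (columns), as log2 of (FPKM + 0.1) over the control mean + 0.1, with colours ending at -4 and 4. Red at 5 psu and blue at 25 psu follow from the rule; the top rows span up to 208-fold and the bottom rows 2.47-fold.

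The step from 5 to 15 psu was larger than the step from 15 to 25 psu in 49 members and smaller in 31. Its median ratio was 2.04 (interquartile range 1.72 to 3.25, largest 19.3), against 1.86 (1.59 to 2.47, largest 19.8) for the step from 15 to 25 psu. With the log2 levels at 5 and 25 psu set to 0 and 1, the control lay at a median of 0.55 and between 0.25 and 0.78. The ratios differed by less than 1.5 times in 54 members, while 16 dropped at least 1.5 times more between 5 and 15 psu and 10 at least 1.5 times more between 15 and 25 psu. In 5 members the first ratio was at least 3 times the other, and in 0 the reverse. Of the rising unigenes 222 of 340 had the larger step between 5 and 15 psu (65.3%, against 61.3%), and the ratios differed by less than 1.5 times in 77.6% (against 67.5% of the falling). A step from 15 to 25 psu at least 1.5 times the other was found in 6.18% of the rising and 12.5% of the falling, and a step from 5 to 15 psu at least 3 times the other in 0.882% and 6.25%. These shares were not tested against each other.

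Unequal steps were tested for by setting the average log level of the low and high salinity groups against the control. The rule sets a minimum for each step and not which is larger, but it used the same libraries, so this too is a description. Of the 80 members 3 were called (edgeR adjusted p under 0.05), all with the larger step between 5 and 15 psu. In either direction 0.652% of the 71915 tested unigenes were called, and 1.48% of the 27295 of them that passed the level filters. The member ranked 9 held 69.4, 66.1 and 58.1 FPKM at 5 psu, 6.65, 6.33 and 7.27 FPKM at 15 psu and 2.81, 2.70 and 2.90 FPKM at 25 psu (contrast 1.03, SE 0.11, edgeR adjusted p = 0.00313). The member ranked 28 had the largest ratio of 5 over 15 psu of all 80, with 22.8, 22.5 and 23.3 FPKM at 5 psu, 1.14, 0.99 and 1.13 FPKM at 15 psu and 0.31, 0.17 and 0.38 FPKM at 25 psu (1.28, SE 0.18, edgeR adjusted p = 0.0152). The member ranked 43 held 11.3, 10.7 and 10.1 FPKM, then 2.48, 2.52 and 2.48 FPKM, then 1.54, 1.51 and 1.75 FPKM (0.77, SE 0.12, edgeR adjusted p = 0.0264). The count was 1 without any one control library or without replicate 1 at 25 psu, beside 0.174 to 0.347% of all tested unigenes. With the libraries' fragment length offset as a covariate 0 were called, beside 0.113% of all tested unigenes. The members' median contrast was then 0.13 (median SE 0.25), against 0.11 (median SE 0.20) without the covariate. By DESeq2 there were 8 calls, beside 0.543% of the 227251 unigenes in that fit. By limma on log2(FPKM + 1) there were 6, beside 0.661% of all tested unigenes.

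**Figure D4:**
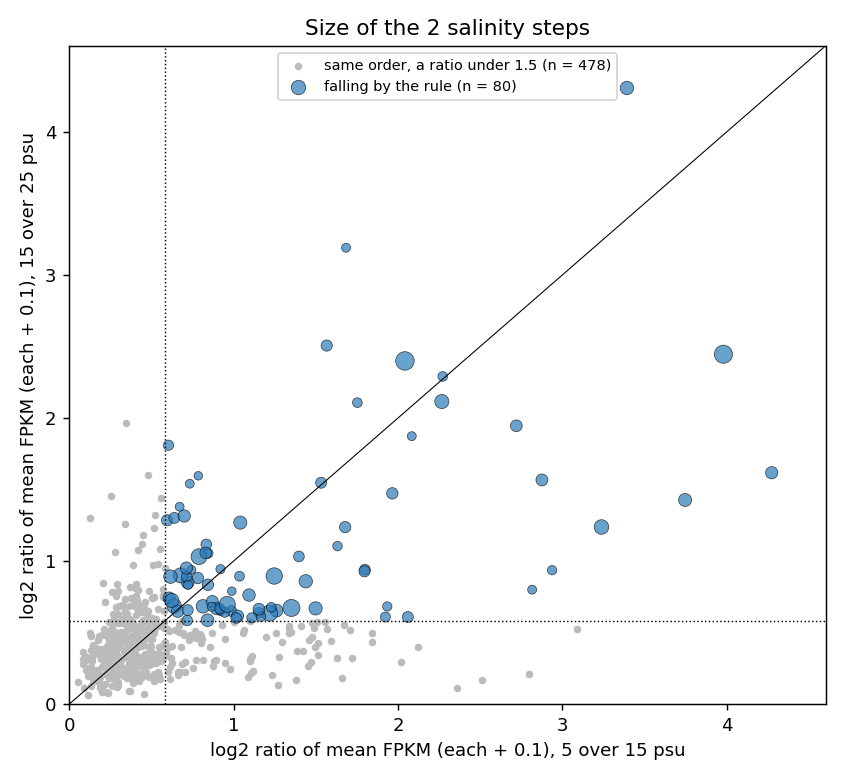
Log2 ratio of mean FPKM (each + 0.1) of 5 over 15 psu (x axis) against that of 15 over 25 psu (y axis) for the 80 falling unigenes (blue, area growing with mean level) and the 478 others with the same order (grey). Dotted lines mark the minimum ratio of 1.5 and the solid line equal steps; 49 blue points lie right of it and 31 left.

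The whole table was tested with edgeR, and all 80 members were among the 71915 unigenes tested. Since the rule used the same contrasts, nothing is read from the following counts. At 5 against 15 psu 47 members were called higher at 5 psu, beside 1.26% of all tested unigenes. At 25 against 15 psu 34 were called lower at 25 psu, beside 0.679% of all. Between 25 and 5 psu 79 were called lower at 25 psu, beside 4.63% of all. These shares cover tested unigenes at any level, while the members had to pass the level filters. Of the 27295 tested unigenes that passed those filters, 5.94% were called at 5 against 15 psu in either direction. In either direction 4.85% of them were called at 25 against 15 psu and 19.8% between 25 and 5 psu. Their shares in the members' direction alone were not taken. Against the control 26 members were called at both salinities, 21 at 5 psu alone, 8 at 25 psu alone and 25 at neither, of which 24 were called between 25 and 5 psu. Among the 10 most abundant members 9 were called at both, and among the 59 under 10 FPKM 12 were. No share over all unigenes stands beside this split by comparison and level, so its counts are not compared with each other. The median log2 fold change of the members was 1.07 at 5 psu (median SE 0.23) and -0.88 at 25 psu (median SE 0.25), while that of all tested unigenes was -0.0023 and -0.013.

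The count at 25 against 15 psu fell when any 1 library of these 2 groups was left out. It was 19, 22 and 14 without control replicates 1, 2 and 3. It was 19, 17 and 22 without replicates 1, 2 and 3 at 25 psu. The share called over all tested unigenes fell as well, from 0.679% with all 9 libraries to between 0.175% and 0.301%. The members' median log2 fold change then ran from -0.93 to -0.86. The libraries at 5 psu are in the same model, and leaving 1 of them out moved the count as well. It was 32, 23 and 40 without replicates 1, 2 and 3 at 5 psu, beside 0.673%, 0.427% and 0.844% of all tested unigenes. Fragment length, which count and FPKM together imply, was shifted between libraries: the offset in effective length was -6.33 to -4.43 nucleotides at 25 psu, -2.51 to 11.4 at 15 psu and -4.05 to 6.28 at 5 psu. Every library at 25 psu thus had a lower offset than every other library, so this covariate and the 25 psu group can hardly be separated. With the offset as a covariate 5 members were called at 25 against 15 psu, beside 0.0348% of all tested unigenes. The median log2 fold change of the 80 members was then -0.93 (median SE 0.33). At 5 against 15 psu 40 were called (beside 0.838% of all), and between 25 and 5 psu 73 (beside 1.81%).

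The member ranked 55 was the 1 not called in any of these comparisons. It held 4.99, 6.08 and 7.18 FPKM at 5 psu and 3.64, 3.94 and 4.32 FPKM at 15 psu. At 25 psu its libraries were far apart, at 0.35, 0.04 and 2.79 FPKM. The log2 difference between 25 and 5 psu was -2.50 (SE 0.88, edgeR adjusted p = 0.117). Replicate 3 at 25 psu thus lay near the control, although the order held.

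Within groups, the members varied about as much as other unigenes at 5 and 15 psu. The rule bars overlap between groups and so limits the spread a member can have, which makes this comparison a description. The median SD of log2(FPKM + 0.1) between libraries of a group was 0.25 at 5 psu, 0.16 at 15 psu and 0.24 at 25 psu, against 0.23, 0.17 and 0.16 over all unigenes that passed the level filters. At 25 psu, where the members were lowest, the highest library was at least double the lowest in 20 of 80, at 5 psu in 9 and at 15 psu in 5. At 5 psu replicate 3 was the highest library for 38 members and the lowest for 30, and replicate 1 the highest for 20 and the lowest for 35. Over all unigenes that passed the filters replicate 3 was highest for 46.3% and replicate 1 lowest for 49.8%, so the members followed the general spread of those libraries. The widest spread at 5 psu was in the member ranked 16, with 11.8, 22.3 and 43.9 FPKM, above 7.07, 10.2 and 11.4 FPKM at 15 psu by a narrow margin.

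Margins were narrow for a part of the set. The lowest library at 5 psu was at least 1.5 times the highest control library in 37 members. The lowest control library was at least 1.5 times the highest at 25 psu, each with 0.1 FPKM added, in 31, and both held in 18. The lowest library at 5 psu exceeded the highest control library by less than 1.1 times in 4 members, and the lowest control library the highest at 25 psu by less than 1.1 times in 10. Just inside the minimum ratio of 5 over 15 psu was a member at 1.51 (8.26 against 5.43 FPKM) and just outside a unigene at 1.497 (15.1 against 10.06 FPKM). Just inside the ratio of 15 over 25 psu was a member at 1.50 (3.60 against 2.37 FPKM) and just outside a unigene at 1.499 (5.80 against 3.83 FPKM). For the mean level the nearest values were 2.08 FPKM inside and 1.97 FPKM outside, and for the summed counts 307 and 288.

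Length was not itself a term of the rule, though the minimum FPKM and the minimum count together bear on it. The sets it is compared with below passed the same 2 filters. The implied effective length had a median of 1317 nucleotides (interquartile range 804 to 2479), against 1372 (790 to 2387) over all unigenes that passed the level filters and 1245 (644 to 2012) for the rising counterpart. Under 300 nucleotides there were 7 members (8.75%, against 5.36% of all), among them those ranked 2, 12 and 20. Over 2000 nucleotides there were 28 (35.0%, against 32.6%). The longest were a pair with adjoining identifier numbers and implied lengths of 8058 and 8045 nucleotides. The first of this pair held 10.5, 10.6 and 12.5 FPKM at 5 psu, 3.63, 3.22 and 4.27 FPKM at 15 psu and 0.55, 0.51 and 0.65 FPKM at 25 psu. Its partner held 5.54, 6.93 and 7.42 FPKM, then 1.63, 2.03 and 2.03 FPKM, then 0.53, 0.34 and 0.22 FPKM. Both had counts that were not whole in all 9 libraries, so reads were divided between them or with further unigenes.

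Shared reads were about as common in the set as among all unigenes that passed the level filters. Read to 2 decimals, counts were not whole in at least 1 library for 58 members (72.5%, against 70.4%) and in all 9 for 44 (55.0%, against 53.8%). All 80 carried the identifier of the largest assembly cluster, as did 99.8% of all that passed the filters. Levels of single members are uncertain to the extent that the authors' counting divided reads among related sequences. The 3 pairs of members with adjoining numbers leave 77 when each pair is counted once.

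Some unigenes with adjoining identifier numbers shared the direction. What the order of the numbers stands for is not given in the sources used here, and it was not used by the rule. Of the 160 identifiers numbered 1 below or 1 above a member, 54 passed the level filters, and 6 of these were members, each pair counted from both sides. Of the other 48, 11 (22.9%) were at least 2-fold higher at 5 than at 25 psu, against 3.15% of all that passed the filters. At least 2-fold lower were 2 of the 48, where the share over all was 5.24%. Their median ratio of 5 over 25 psu was 1.13, against 0.988 over all. Next to the rising unigenes, 32 of 172 such neighbours (18.6%) were at least 2-fold higher at 25 psu, beside the same 5.24% of all. These shares are a description, since neighbours may share reads with members.

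**Figure D5:**
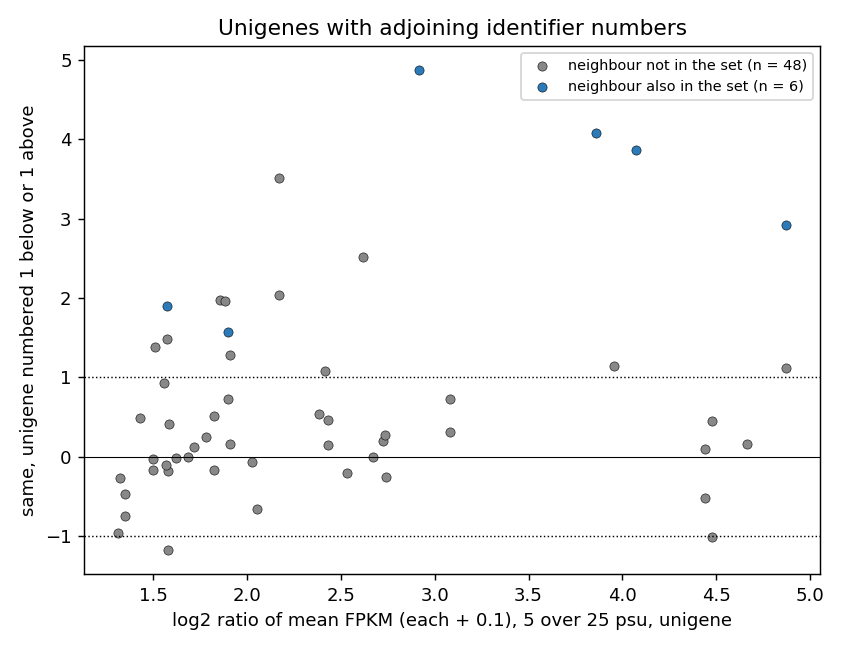
Log2 ratio of mean FPKM (each + 0.1) of 5 over 25 psu in a falling unigene (x axis) and in the unigene numbered 1 below or 1 above it (y axis), for the 54 neighbours that passed the level filters. Dotted lines mark a 2-fold difference; 11 of the 48 neighbours outside the set (grey) lie at or above the upper line and 2 below the lower one.

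When the counts of both neighbours were added to those of a member, the order without overlap held for 54 of the 80 sums, and the order with both ratios for 34. The means still fell at both steps in 71. A member supplied a median of 61.4% of its sum, and under 50% of it in 29. Where the order was lost, it supplied a median of 42.5%. The member ranked 8 had a neighbour with the opposite direction, at 14.1, 16.0 and 32.0 FPKM (group means with 0.1 added) at 5, 15 and 25 psu. A neighbour of the member ranked 40 was far more abundant than that member and went the same way, at 206, 66.6 and 53.1 FPKM.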

How the data were processed

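The authors deposited, per the file headers, FPKM with 2 decimals beside an estimated count, also called an expected count, for each unigene and library. The submitters' processing notes name RSEM and Bowtie2 but no version, and no source used here describes assembly or clustering. Libraries were made with a NEBNext Ultra RNA kit, per the labels' protocols, which do not call it stranded. Effective lengths are count divided by FPKM and by library total, rescaled to nucleotides, in libraries with at least 0.5 FPKM, as a median. The length offset of a library is its median deviation over the 946 unigenes that averaged 2000 counts or more. Counts were rounded and tested with edgeR 4.0.16 (R 4.3.3): filterByExpr (count minimum 10), TMM, robust quasi-likelihood F test in 1 model of all 9 libraries, Benjamini-Hochberg at 0.05 over 71915 unigenes. The 3 contrasts between salinities share libraries. An SE is the fold change over the root of F. The code was tested on simulated data. P-values measure the spread between libraries, which may be technical, and counts of 0 allow 3 counts (counting error only).

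Members and lists were chosen with earlier results of these data known. Named were, among members with at least 10 FPKM on average, the 2 with the largest ratio of 5 over 15 psu and then the 2 with the largest ratio of 15 over 25 psu, passing over a member already named; others are given by rank, some chosen after their values were seen. Alternatives were other scalings, filters and pseudocounts, DESeq2 1.42.0, limma 3.58.1, a replicate block, the length offset and leaving out each library.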

Additional observations from a re-analysis of the deposited data

How the results depend on the processing

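The number of members depended most on the limits of the rule: 299 with the minimum ratio lowered by 0.25, 20 with a minimum ratio of 2, 48 with a pseudocount of 1 and 42 at a mean of at least 5 FPKM. It was 85 without a pseudocount, 84 on TMM-scaled CPM (73 shared with the 80) and 78 on FPKM divided by TMM factors (69 shared). Leaving out 1 library gave 80 to 104 members, sharing 62 to 72 with the 80. With a pseudocount of 1 the median log2 ratios of 1.03 and 0.89 became 0.91 and 0.68; without 1 library they ran from 0.98 to 1.09 and from 0.84 to 0.93. Without 1 library, 34 to 51 members were called at 5 against 15 psu, 14 to 40 at 25 against 15 psu, 77 to 79 between 25 and 5 psu and 1 to 4 for unequal steps. The shares over all tested unigenes then ran from 0.663 to 1.34%, 0.175 to 0.844%, 2.43 to 3.82% and 0.174 to 0.846%. The fragment length offset as a covariate left 5 at 25 against 15 psu and 0 for unequal steps, against 3 without it. Over all tested unigenes it left 0.0348% and 0.113%, and the offset was lowest in the libraries at 25 psu. For unequal steps DESeq2 called 8, limma on log2(FPKM + 1) 6 and edgeR on unfiltered counts 6. Beside these stood 0.543%, 0.661% and 0.352% of all unigenes in the same fits. Same-numbered libraries correlated in their deviations from group means at r of -0.0169 to 0.106, with 1 value of 9 above 0.1, and pairing by number was not assumed. With a replicate block the counts were 46, 30, 78 and 3, beside 1.05%, 0.437%, 3.96% and 0.359% of all tested unigenes. For Cluster-8005.8954 and Cluster-8005.132259 the offset covariate also ended the call at 25 psu (edgeR adjusted p = 0.105 and 0.0902), at log2 fold changes of -2.84 and -5.65 that were larger in size than without it, and for Cluster-8005.139266 limma on log2(FPKM + 1) called it (-0.90, adjusted p = 0.0445). The causes were not tested. No fold change of the 4 named unigenes turned its sign in any fit. Depth limits the low end: 28 of the 240 member values at 25 psu (11.7%), in 14 members, rest on fewer than 10 counts.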

Other observations

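The numbers around the longest pair of members held a further unigene with the falling pattern. It was numbered 3 below the first of the pair, had an implied effective length of 348 nucleotides and held 22.6, 17.7 and 16.1 FPKM at 5 psu, 3.93, 5.96 and 3.15 FPKM at 15 psu and 3.20, 1.64 and 0.72 FPKM at 25 psu. It missed the rule because 1 library at 25 psu lay above the lowest control library. The unigene numbered 5 above the pair's first, with an implied length of 4249 nucleotides, did not share the pattern, with group means of 5.09, 6.75 and 6.08 FPKM at 5, 15 and 25 psu. Both were chosen after their values were seen.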
